A study of Mus musculus with 9 samples.

Results

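The genes described here are 34 genes of the endoplasmic reticulum (ER) stress response, taken by symbol from 54427 distinct gene symbols in the count files of 9 tumours. They were chosen because Crebrf and Atf6 had higher counts with hairpin 2 than in control tumours, so every member value of hairpin 2 against control is a description and carries no test. All 34 symbols were found, all 34 passed the filter on low counts, and each had reads in all 9 libraries.

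The tumours grew from B16-F10, a melanoma cell line of the C57BL/6 mouse, injected under the skin of C57BL/6 mice and removed on day 16. The injected cells carried 1 of 3 short hairpin RNAs, which lower a target transcript through RNA interference. These were a control hairpin (genotype label WT), a first hairpin against Fbxo38 and a second hairpin against Fbxo38, with 3 libraries each and no further treatment in any group. Fbxo38 encodes an F-box protein, the part of an SCF ubiquitin ligase that binds the substrate. Their genotype labels name a different gene for each of these 6 samples, from FBXO38 up to FBXO43, so the groups were taken from the titles. The labels used here do not say whether each library came from its own animal, how old the mice were or whether a line was 1 clone. All p-values therefore measure the spread between these samples, which may be technical.

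Secreted and membrane proteins fold in the ER, and unfolded protein there switches on the unfolded protein response. It has 3 arms, each with a sensor in the ER membrane. ATF6 travels to the Golgi, where the proteases S1P and S2P release its transcription factor domain; IRE1 (gene Ern1) splices the messenger of Xbp1; and PERK (gene Eif2ak3) phosphorylates the initiation factor eIF2 alpha, which slows translation in general but favours that of ATF4. ATF6 and XBP1 are known to switch on chaperones and ER-associated degradation (ERAD), which moves misfolded proteins out to the proteasome. ATF4 switches on amino acid genes and, with CHOP (gene Ddit3), stress genes such as Trib3 and Chac1. Crebrf encodes a factor known to bind CREB3 and to promote its breakdown; CREB3 is a further ER membrane transcription factor. Gene counts show neither Xbp1 splicing, nor ATF6 cleavage, nor kinase activity.

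Promoter sequence is shown first, because 7 of the 14 chaperone members and 1 of the 4 ERAD members hold the letters of an element that the rule did not use. The RefSeq promoter table (GRCm38.p6) covers 250 bases before and 50 after each gene's start and matched 31 of the 34 members; Atf6, Hyou1 and Manf were not matched. Searches on both strands covered the ER stress response element (ERSE, CCAAT and CCACG separated by 9 bases), ERSE-II (ATTGG and CCACG separated by 1 base), the UPRE core TGACGTGG, the cyclic AMP response element TGACGTCA and the core of the ATF4 element (CARE) TGATGNAA. ERSE and ERSE-II share their CCACG part, and the UPRE core and the cyclic AMP element share their first 6 letters. ERSE letters were present in 39 of 32851 promoters (0.119%) and in 8 of 31 member promoters (25.8%), those of Calr, Canx, Creld2, Dnajc3, Hsp90b1, Hspa5, Pdia6 and Syvn1. Of all promoters, 12 (0.0365%) held ERSE-II, among them Dnajb11 and Herpud1. The CARE core was found in 1304 promoters (3.97%) and in 4 of the members (12.9%), namely Asns, Chac1, Herpud1 and, just after its start, Trib3. The cyclic AMP element was found in 588 promoters (1.79%) and in 1 member, Ppp1r15a. The UPRE core was found in 222 promoters (0.676%) and in no member promoter. A match describes letters and is not evidence of a bound site. The members are listed as ER stress genes and ERSE is named for that response, so these shares are a description and were not tested.

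The promoters of the 4 ERSE genes with the highest mean CPM, not divided by length, follow, 5′ to 3′ on the strand of the gene, with the element in capitals. They lie at chr2:34772013-34772055 (plus strand), chr8:84847063-84847105 (minus strand), chr11:50325788-50325830 (minus strand) and chr10:86705521-86705668 (minus strand), and the last holds 2 elements in opposite orientation.
Hspa5: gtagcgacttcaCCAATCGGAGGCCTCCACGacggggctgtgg
Calr: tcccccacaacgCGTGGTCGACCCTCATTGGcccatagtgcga
Canx: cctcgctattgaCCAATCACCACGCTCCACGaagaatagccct
Hsp90b1: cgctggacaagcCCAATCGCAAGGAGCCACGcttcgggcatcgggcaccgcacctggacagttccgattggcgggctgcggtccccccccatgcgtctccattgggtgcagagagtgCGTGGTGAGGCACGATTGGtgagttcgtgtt

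Herpud1, an ERAD gene, held a CARE core and, nearer the start, ERSE-II, both in capitals, at chr8:94386305-94386399 (plus strand). Asns, at chr6:7693213-7693244 (minus strand), and Chac1, at chr2:119351037-119351068 (plus strand), are shown for the CARE core, in capitals; these 3 stretches were chosen after expression values were seen. The stretch of Crebrf, at chr17:26715500-26715649 (plus strand), holds none of the searched letters and is printed because Crebrf heads the list.
Herpud1: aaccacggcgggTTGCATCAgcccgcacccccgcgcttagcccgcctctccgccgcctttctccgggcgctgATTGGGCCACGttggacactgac
Asns: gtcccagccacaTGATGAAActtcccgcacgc
Chac1: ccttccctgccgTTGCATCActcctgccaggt
Crebrf: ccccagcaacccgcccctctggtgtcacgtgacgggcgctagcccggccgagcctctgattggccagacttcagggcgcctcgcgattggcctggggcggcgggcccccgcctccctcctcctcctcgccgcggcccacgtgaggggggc

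Each library held between 15322163 and 17342554 counts, and levels are given in CPM, the usual scale on which each count is divided by the size of its library. Sizes were scaled with TMM, edgeR's adjustment for composition. Fbxo38 stood at 21.7, 31.3 and 30.8 CPM in control, 35.1, 21.0 and 22.0 in the libraries labelled hairpin 1, and 21.0, 11.4 and 11.9 with hairpin 2. Since the libraries labelled hairpin 1 overlapped control, they are named by their label. All 8 melanoma markers were present in every library and summed to between 21899 and 28473 CPM. Markers of other cells were present too, since whole tumour was sequenced. The 8 fibroblast markers summed to 168 to 406 CPM in control, to 3335, 245 and 757 in replicates 1 to 3 labelled hairpin 1, and to 277, 455 and 1423 in those of hairpin 2. The 4 red blood cell markers summed to 2450 to 4790 CPM in control and 20696 in replicate 2 of hairpin 2, and to 410 to 1429 in the other 5 Fbxo38 hairpin libraries, all below every control. Replicate 1 labelled hairpin 1 and replicate 2 of hairpin 2 also stood apart on the first principal component (35.8% of the variance), at 60.6 and -54.8 against -21.5 to 30.7 in the other 7. The 8 B cell and plasma cell markers, cells rich in ER, had 3 members with reads in every library and summed to 84.9 to 90.8 CPM in control, 77.9 to 92.7 in the libraries labelled hairpin 1 and 72.3 to 76.7 with hairpin 2. The 8 leukocyte markers summed to 230 to 482 CPM in control, 218 to 539 in the libraries labelled hairpin 1, and 153, 33.9 and 548 with hairpin 2. The B cell and plasma cell sum did not follow them, at 76.7 and 72.3 CPM in replicates 2 and 3 of hairpin 2. Whether that sum measures these cells was not tested. The part of these cells in the member values was not tested. In bulk tissue, fewer cells of a type and less RNA per cell cannot be told apart.

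Per kilobase of the longest transcript, control levels ran from 2.82 CPM for Crebrf to 506 CPM for Calr, the gene of the calcium-binding chaperone calreticulin. The chaperone genes Hspa5 (342), Pdia3 (267), Pdia6 (258) and Hsp90b1 (245 CPM per kilobase) came next. Among the other roles, the most abundant per kilobase were Atf4 (136) for transcription factors, Asns (87.3) for ATF4 outputs, Herpud1 (43.5) for ERAD and Atf6b (43.2) for sensors. The sensor gene Ern1 (4.07), the protease gene Mbtps2 (5.62) and the phosphatase subunit Ppp1r15a (6.95) were near Crebrf at the low end. The 8 members with ERSE letters had a median control level of 220.5 CPM per kilobase (range 20.1 to 506), against 26.9 (2.82 to 267) in the 23 matched members without. The 8 are chaperone genes except for the ERAD gene Syvn1 (20.1). Matched chaperones without the letters ran from 10.65 (Dnajb9) to 267 (Pdia3) CPM per kilobase. The part of role in this difference was not tested. Relative spread over the 9 libraries was widest for Ppp1r15a, with a coefficient of variation of 41.0%, then Ddit3 (38.9%), Trib3 (38.4%), Crebrf (34.7%) and Chac1 (34.3%). It was narrowest for the chaperone partner Dnajb11 (5.94%) and the disulfide isomerase Pdia6 (6.53%).

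Across the list, no member passed an edgeR quasi-likelihood test at a p under 0.05 after Benjamini-Hochberg adjustment for all genes tested in any of the comparisons, and no gene did so over all 14193 tested (0% in each). In the libraries labelled hairpin 1, 27 of 34 members had a positive log2 fold change (a value above 0 means a higher level than control), beside 52.6% of all tested genes. The median was 0.09 against 0.01 over all genes, and without replicate 3 of that group the count was 15 of 34 and the median -0.02. With hairpin 2, 22 of 34 were positive beside 51.5%, with a median of 0.10 against 0.01. Both comparisons use the same 3 control libraries. At an unadjusted p under 0.05, edgeR had 2 members higher in the libraries labelled hairpin 1, Crebrf and Atf6, and 0 lower, beside 262 (1.85%) and 188 (1.32%) of all genes. Crebrf and Atf6 were chosen for being higher than these same control libraries, so their values labelled hairpin 1 are not independent of that choice. The 3 libraries of a group lay all above control for 1 member labelled hairpin 1, Crebrf (4.09% of all genes), and all below for 0 (4.3%). For hairpin 2 this held for 8 members above (10.6% of all genes) and 1 below (10.2%); that comparison chose the list, and nothing is read from it. By DESeq2 at an adjusted p under 0.05, 2 members (Crebrf and Atf6) were higher with hairpin 2 and 0 lower, beside 1.11% and 1.03% of all genes, again from the comparison that chose them. Between the hairpins, 18 members had higher values with hairpin 2, beside 50.2% of all genes.

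**Figure D1:**
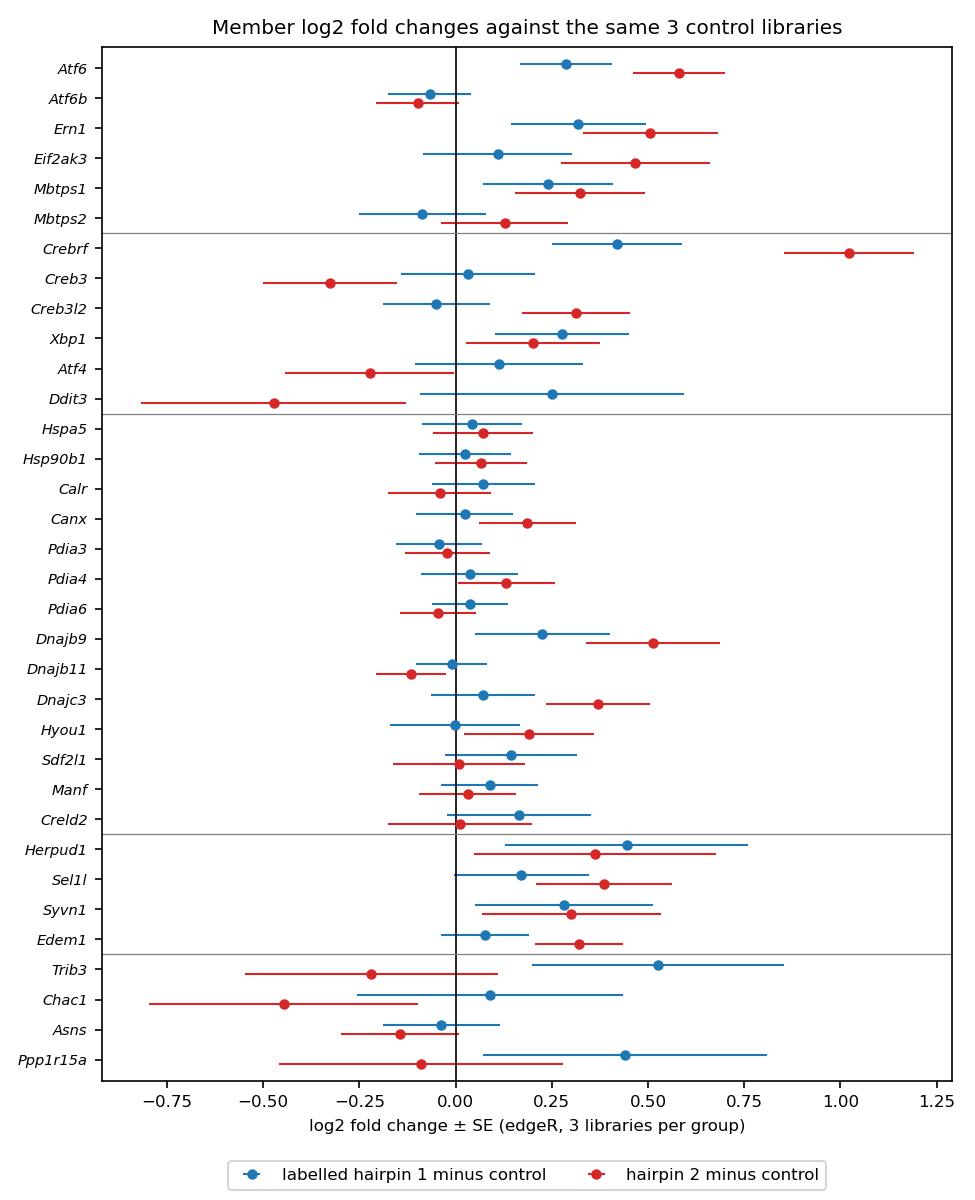
Log2 fold changes of the 34 members (horizontal axis, points with SE bars from edgeR, 3 libraries per group) for the libraries labelled hairpin 1 (blue) and hairpin 2 (red) against the same control libraries, with lines between roles. Crebrf lies farthest right with hairpin 2 at 1.02, the chaperones other than Dnajb9 and Dnajc3 lie within 0.20 of 0 in both comparisons, and the ATF4 outputs at the bottom lie left of 0 with hairpin 2.

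Crebrf (ENSMUSG00000048249.14, protein coding, GRCm38 chr17:26715650-26776635, plus strand, no exon overlap with another gene in GENCODE M21) was lowest in control and highest with hairpin 2. It stood at 20.8, 21.6 and 20.6 CPM in control, at 25.6, 34.6 and 24.1 in the libraries labelled hairpin 1, and at 44.2, 49.0 and 34.9 with hairpin 2. The 3 groups did not overlap, although replicate 3 of hairpin 2 was close to replicate 2 labelled hairpin 1. The means were 21.0 ± 0.488, 28.1 ± 5.70 and 42.7 ± 7.15 CPM (SD, n = 3 each). The hairpin 2 mean corresponds to a fitted ratio of 2.03 to control, a log2 fold change of 1.02 with a standard error (SE) of 0.17, given as a description. The libraries labelled hairpin 1 differed from control by 0.42 on the log2 scale (SE 0.17, 95% interval 0.05 to 0.79; edgeR unadjusted p = 0.0313, adjusted p = 1), with 3 of 3 libraries above every control. Without replicate 2 of that group it was 0.23. Crebrf was chosen against the same control libraries, so the p-value is not independent of the choice. Hairpin 2 lay above the libraries labelled hairpin 1 by 0.60 (SE 0.17), which is also a description. With each library's trend with transcript length and GC content removed, the hairpin 2 difference was 0.63 against control and 0.29 against the libraries labelled hairpin 1.

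Atf6 (ENSMUSG00000026663.6, protein coding, GRCm38 chr1:170704674-170867771, minus strand, no exon overlap) encodes the sensor itself. Its levels were 91.9, 100.3 and 85.8 CPM in control, 98.6, 125 and 115 in the libraries labelled hairpin 1, and 138, 152 and 125 with hairpin 2. All 3 hairpin 2 libraries lay above all others, by a narrow gap from replicate 2 labelled hairpin 1, while replicate 1 of that group lay within control. Hairpin 2 averaged 139 ± 13.3 against 92.7 ± 7.29 CPM in control (SD, n = 3), a log2 fold change of 0.58 (SE 0.12), or 0.26 with the length and GC trend removed. Hairpin 2 lay above the libraries labelled hairpin 1 by 0.29 (SE 0.12), or 0.03 with that trend removed. Those labelled hairpin 1 averaged 113 ± 13.3 CPM (SD, n = 3) and differed from control by 0.29 on the log2 scale (SE 0.12, 95% interval 0.02 to 0.55; edgeR unadjusted p = 0.0379, adjusted p = 1), with 2 of 3 libraries above every control. Atf6 too was chosen against these control libraries, so the p-value is not independent of the choice. The related sensor Atf6b stood at 112, 104 and 116 CPM in control, 93.1, 111 and 113 in the libraries labelled hairpin 1 and 95.7, 109 and 106 with hairpin 2. Its groups overlapped throughout, with log2 fold changes of -0.07 (SE 0.11) and -0.10 (SE 0.11).

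**Figure D2:**
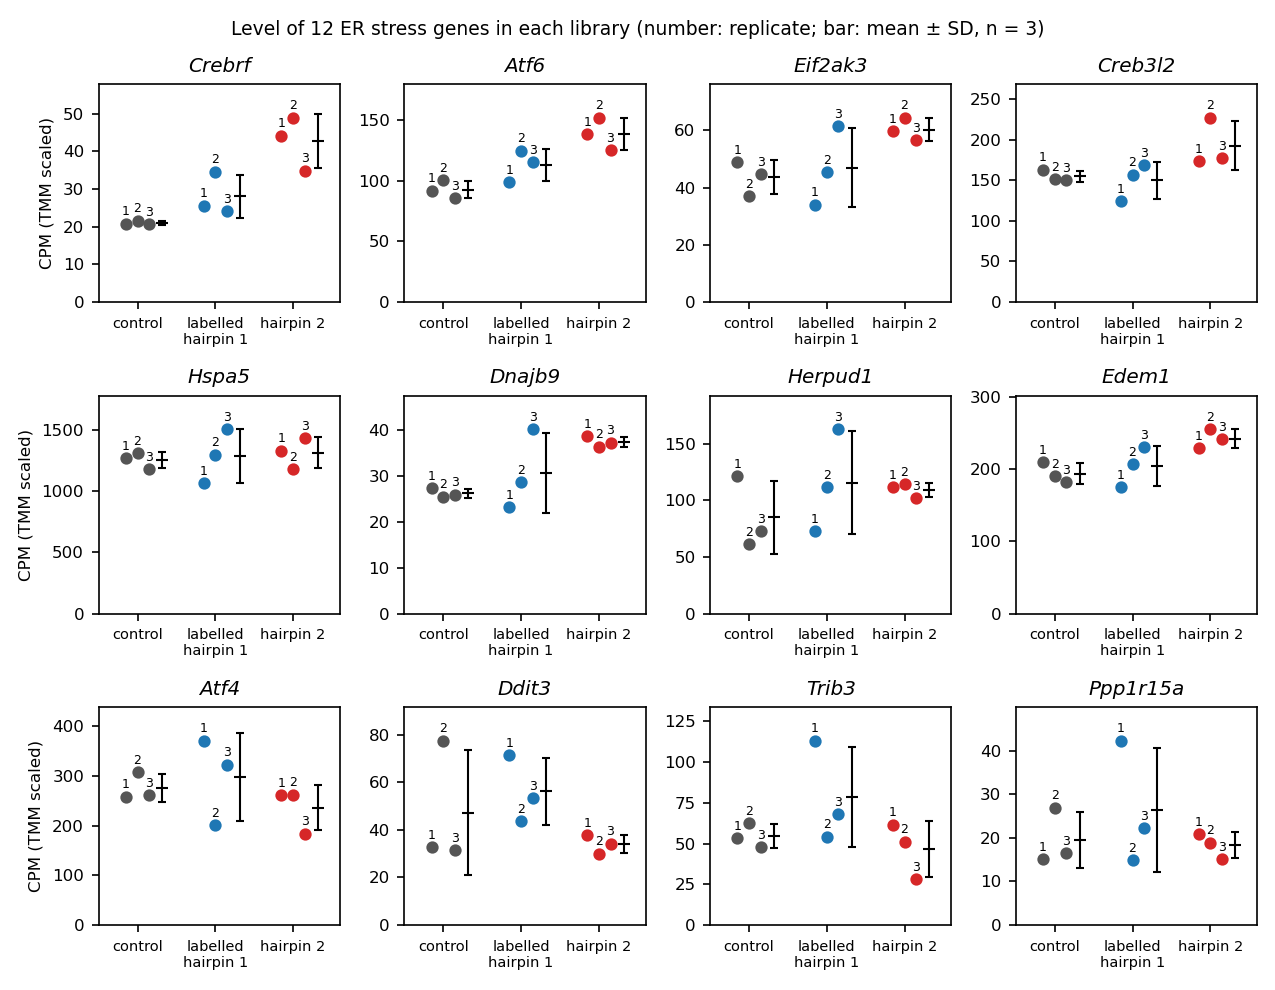
CPM (vertical axes from 0, TMM scaled) of 12 members in each of the 9 libraries, with replicate numbers above the points and mean ± SD (n = 3) beside each group. Crebrf and Atf6 are highest in the hairpin 2 libraries, Hspa5 overlaps across groups, Ddit3 has 1 control library at 77.5 CPM, and replicate 1 labelled hairpin 1 is the highest point for Atf4, Trib3 and Ppp1r15a.

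With hairpin 2 and as fitted, the sensors of the other arms differed less from control than Atf6 did. With the length and GC trend removed, Eif2ak3 was at 0.38, Ern1 at 0.24 and Atf6 at 0.26. In the libraries labelled hairpin 1, Ern1 was at 0.32 and Atf6 at 0.29. Eif2ak3, the PERK gene, stood at 48.9, 37.1 and 44.8 CPM in control and at 59.9, 64.5 and 56.5 with hairpin 2, with no overlap. The libraries labelled hairpin 1 spanned both at 34.1, 45.5 and 61.5 CPM. Log2 fold changes were 0.11 (SE 0.19; edgeR adjusted p = 1) for the libraries labelled hairpin 1, or -0.14 without replicate 3, and 0.47 (SE 0.19) for hairpin 2. Ern1, the IRE1 gene, stood at 27.6, 34.1 and 23.1 CPM in control, 38.3, 30.4 and 37.1 in the libraries labelled hairpin 1 and 39.4, 33.8 and 47.3 with hairpin 2. Each Fbxo38 hairpin group overlapped control through control replicate 2, with log2 fold changes of 0.32 (SE 0.18) and 0.51 (SE 0.18). The protease genes that release ATF6 also overlapped control. Mbtps1 (S1P) averaged 123 ± 25.4, 146 ± 26.6 and 154 ± 11.6 CPM in control, labelled hairpin 1 and hairpin 2 (SD, n = 3). Mbtps2 (S2P) averaged 27.0 ± 3.12, 25.4 ± 4.18 and 29.5 ± 4.63 CPM. Over the 6 sensors and proteases the median log2 fold change was 0.18 in the libraries labelled hairpin 1, or 0.04 without replicate 3 and 0.08 without control replicate 2, and 0.40 with hairpin 2.

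Transcription factors other than Crebrf went in different directions. CREB3, the protein that Crebrf is known to restrain, is encoded by Creb3, at 32.1, 49.7 and 42.2 CPM in control, 46.6, 44.4 and 35.9 in the libraries labelled hairpin 1 and 33.2, 28.9 and 36.8 with hairpin 2. Hairpin 2 overlapped control through control replicate 1, and the log2 fold changes were 0.03 (SE 0.17) and -0.33 (SE 0.17). Exons of Creb3 overlap Gba2 and Tln1 on the opposite strand, whose reads cannot be separated from it if counting ignored strand. Creb3l2, a CREB3 relative that serves secretory cells, stood at 163, 152 and 151 CPM in control, 124, 157 and 168 in the libraries labelled hairpin 1 and 174, 227 and 177 with hairpin 2. All 3 hairpin 2 libraries lay above all others, replicate 2 by the most, and the log2 fold change against control was 0.31 (SE 0.14), or 0.17 without that library. Xbp1, the substrate of IRE1, averaged 137 ± 22.8 CPM in control, 166 ± 35.7 in the libraries labelled hairpin 1 and 158 ± 16.4 with hairpin 2 (SD, n = 3). Its groups overlapped, with log2 fold changes of 0.28 (SE 0.17; edgeR adjusted p = 1) and 0.20 (SE 0.17).

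Atf4 and Ddit3, on the PERK arm, were not higher with hairpin 2. Atf4 stood at 258, 308 and 261 CPM in control, 371, 200.4 and 322 in the libraries labelled hairpin 1 and 262, 262 and 184 with hairpin 2. The libraries labelled hairpin 1 held both the highest and, after replicate 3 of hairpin 2, the next lowest value, and the log2 fold changes were 0.11 (SE 0.22), or -0.09 without replicate 1 labelled hairpin 1, and -0.22 (SE 0.22). Ddit3, the gene of CHOP, stood at 32.7, 77.5 and 31.5 CPM in control, 71.4, 43.8 and 53.2 in the libraries labelled hairpin 1 and 37.8, 30.1 and 34.2 with hairpin 2. Its control value rested on replicate 2: the hairpin 2 log2 fold change of -0.47 (SE 0.34) became 0.07 without it, and that of the libraries labelled hairpin 1 moved from 0.25 (SE 0.34) to 0.80. Ddit3 was the 1 member whose hairpin 2 libraries all lay below those labelled hairpin 1 (7.67% of all genes did). Creb3l2, Atf6 and Crebrf were the 3 whose hairpin 2 libraries all lay above them (8.31% of all genes). Ddit3 exons overlap Mars and Gm4189 on the opposite strand and another gene with the symbol Ddit3 on the same strand.

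The main chaperones were close to control in all groups. Hspa5 (ENSMUSG00000026864.13, GRCm38 chr2:34771970-34777547, plus strand, no exon overlap) encodes BiP, the ER Hsp70 that holds the sensors inactive and is a standard readout of ER stress. It stood at 1270.2, 1312 and 1182 CPM in control, 1066, 1300.1 and 1509.7 in the libraries labelled hairpin 1 and 1335, 1182 and 1434 with hairpin 2. The groups overlapped. The libraries labelled hairpin 1 differed from control by 0.04 on the log2 scale (SE 0.13, 95% interval -0.25 to 0.33; edgeR adjusted p = 1), and hairpin 2 by 0.07 (SE 0.13). Hsp90b1, the ER Hsp90, averaged 789.6 ± 90.4, 804 ± 77.5 and 826 ± 88.1 CPM, and calreticulin (Calr) averaged 1105 ± 69.4, 1162 ± 67.1 and 1073 ± 216 CPM in control, labelled hairpin 1 and hairpin 2 (SD, n = 3). Calnexin (Canx), the membrane-bound lectin chaperone, averaged 839 ± 85.4, 853 ± 125 and 954 ± 76.7 CPM. The disulfide isomerases Pdia3, Pdia4 and Pdia6 differed with hairpin 2 by -0.02 (SE 0.11), 0.13 (SE 0.12) and -0.05 (SE 0.10) on the log2 scale.

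Helpers of BiP differed more among themselves. Dnajb9 (ERdj4), which guides misfolded clients to ERAD, stood at 27.3, 25.4 and 25.9 CPM in control and at 38.6, 36.4 and 37.2 with hairpin 2, without overlap and with SDs of 0.998 and 1.12 CPM. The libraries labelled hairpin 1 reached from below control to above hairpin 2, at 23.2, 28.6 and 40.2 CPM. Its log2 fold changes were 0.23 (SE 0.18; edgeR adjusted p = 1) and 0.51 (SE 0.17), and the first was -0.02 without replicate 3 labelled hairpin 1. Dnajc3 (P58IPK), a co-chaperone known to restrain PERK, stood at 168, 182 and 160.3 CPM in control, 149, 180.1 and 207 in the libraries labelled hairpin 1 and 206, 249.9 and 204 with hairpin 2. Hairpin 2 lay above control throughout, with a log2 fold change of 0.37 (SE 0.14), while the libraries labelled hairpin 1 straddled control at 0.07 (SE 0.14), or -0.05 without replicate 3. Dnajb11 (ERdj3), in contrast, averaged 183 ± 4.95 CPM in control (SD, n = 3) and differed by -0.01 (SE 0.09) and -0.12 (SE 0.09). The nucleotide exchange factor Hyou1 had log2 fold changes of 0.00 and 0.19 (SE 0.17 each). Sdf2l1, a partner of Dnajb11, and the secreted ER proteins Manf and Creld2 had hairpin 2 values of 0.01 to 0.03. Over the 14 chaperone and folding genes the median log2 fold change was 0.04 in the libraries labelled hairpin 1 and 0.05 with hairpin 2. The first was -0.05 without replicate 3 labelled hairpin 1 and 0.00 without control replicate 3, and the second -0.01 without replicate 3 of hairpin 2. The 8 members with ERSE letters had medians of 0.06 and 0.07, and the first was -0.06 without replicate 3 labelled hairpin 1.

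All 4 ERAD genes had positive log2 fold changes in both comparisons, with medians of 0.23 in the libraries labelled hairpin 1 and 0.34 with hairpin 2. Without replicate 3 labelled hairpin 1 the first median was 0.05, and without replicate 1 it was 0.41. Leaving out control replicate 1 gave 0.41 and 0.52, and leaving out control replicate 2 gave 0.12 and 0.23. Herpud1, which organises the ERAD complex in the membrane, stood at 121, 61.0 and 72.5 CPM in control, 72.7, 111 and 163 in the libraries labelled hairpin 1 and 111, 114 and 102 with hairpin 2. Control replicate 1 lay above all 3 hairpin 2 libraries, and the log2 fold changes were 0.44 (SE 0.32; edgeR adjusted p = 1) and 0.36 (SE 0.32). Without control replicate 1 they were 0.79 and 0.71, and without replicate 3 labelled hairpin 1 the first was 0.11. Sel1l, the adaptor of the ERAD ubiquitin ligase, stood at 186, 133 and 147 CPM in control, 130.3, 183 and 211 in the libraries labelled hairpin 1 and 199.6, 215 and 193 with hairpin 2. Only hairpin 2 was clear of control, with a log2 fold change of 0.39 (SE 0.18), or 0.13 with the length and GC trend removed. Edem1, which trims mannose from misfolded glycoproteins, stood at 209, 191 and 182 CPM in control, 175, 207 and 231 in the libraries labelled hairpin 1 and 229, 255 and 242 with hairpin 2. It followed the same order as Sel1l, with log2 fold changes of 0.08 (SE 0.12), or -0.02 without replicate 3 labelled hairpin 1, and 0.32 (SE 0.12). Syvn1 (HRD1), the ligase itself, averaged 82.0 ± 19.5, 99.7 ± 30.3 and 101 ± 8.95 CPM (SD, n = 3), with overlap.

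As fitted, all 4 outputs of PERK and ATF4 had negative log2 fold changes with hairpin 2 and were spread widely in the libraries labelled hairpin 1. Asns, asparagine synthetase, stood at 178, 179 and 171 CPM in control, 215, 132 and 167 in the libraries labelled hairpin 1 and 169, 158 and 150.5 with hairpin 2. It was the 1 member whose hairpin 2 libraries all lay below control, by a log2 fold change of -0.14 (SE 0.15). Trib3, a pseudokinase gene downstream of ATF4 and CHOP, stood at 53.4, 62.7 and 47.7 CPM in control, 113, 54.3 and 68.2 in the libraries labelled hairpin 1 and 61.6, 51.2 and 28.0 with hairpin 2. The libraries labelled hairpin 1 differed from control by 0.53 on the log2 scale (SE 0.33, 95% interval -0.22 to 1.27; edgeR adjusted p = 1), or by 0.15 without replicate 1. Ppp1r15a (GADD34), which helps to reverse the phosphorylation by PERK, stood at 15.1, 26.9 and 16.5 CPM in control, 42.3, 14.9 and 22.2 in the libraries labelled hairpin 1 and 20.9, 18.9 and 15.2 with hairpin 2. Its value of 0.44 (SE 0.37) in the libraries labelled hairpin 1 was -0.09 without replicate 1. Chac1, which breaks down glutathione, averaged 27.4 ± 6.55, 29.1 ± 12.8 and 20.1 ± 5.73 CPM (SD, n = 3). With hairpin 2, Trib3 was at -0.22 (0.05 without replicate 3) and Ppp1r15a at -0.09 (0.20 without control replicate 2). For these 4 genes the median log2 fold change was 0.27 in the libraries labelled hairpin 1 and -0.18 with hairpin 2. Leaving out replicate 1 labelled hairpin 1 turned the first to -0.17, leaving out replicate 2 gave 0.55, and the second was -0.04 without replicate 3 of hairpin 2 and -0.33 without replicate 1. Control libraries moved the first too, to 0.14, 0.46 and 0.16 without replicates 1, 2 and 3. Asns, Chac1 and Trib3 carry the CARE core, as does Herpud1, which differed from them in direction with hairpin 2.

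Single libraries of the group labelled hairpin 1 held many of the extreme member values. Replicate 1 was the highest of all 9 libraries for all 4 ATF4 outputs and the lowest for 15 of the 34 members, among them 8 of 14 chaperones and 3 of 4 ERAD genes. Replicate 3 of the same group was the highest for 9 members, 7 of them chaperones. The mean deviation of the ATF4 outputs from their gene means over all libraries was 0.80, -0.37 and 0.19 (log2 CPM) in replicates 1, 2 and 3 labelled hairpin 1, and that of the ERAD genes was -0.40, 0.11 and 0.39. Hairpin 2 libraries were closer to each other for ERAD, at 0.16, 0.19 and 0.16, and apart for the outputs, at 0.00, -0.07 and -0.59. As a description over 9 libraries, the median Spearman rho between pairs of genes was 0.72 among the ATF4 outputs (6 pairs), 0.68 among ERAD genes (6 pairs), 0.38 among chaperones (91 pairs), 0.18 among sensors and proteases (15 pairs) and -0.07 among transcription factors (15 pairs). Replicate 1 labelled hairpin 1 is also the library with 3335 CPM of fibroblast markers; their part in these values was not tested.

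**Figure D3:**
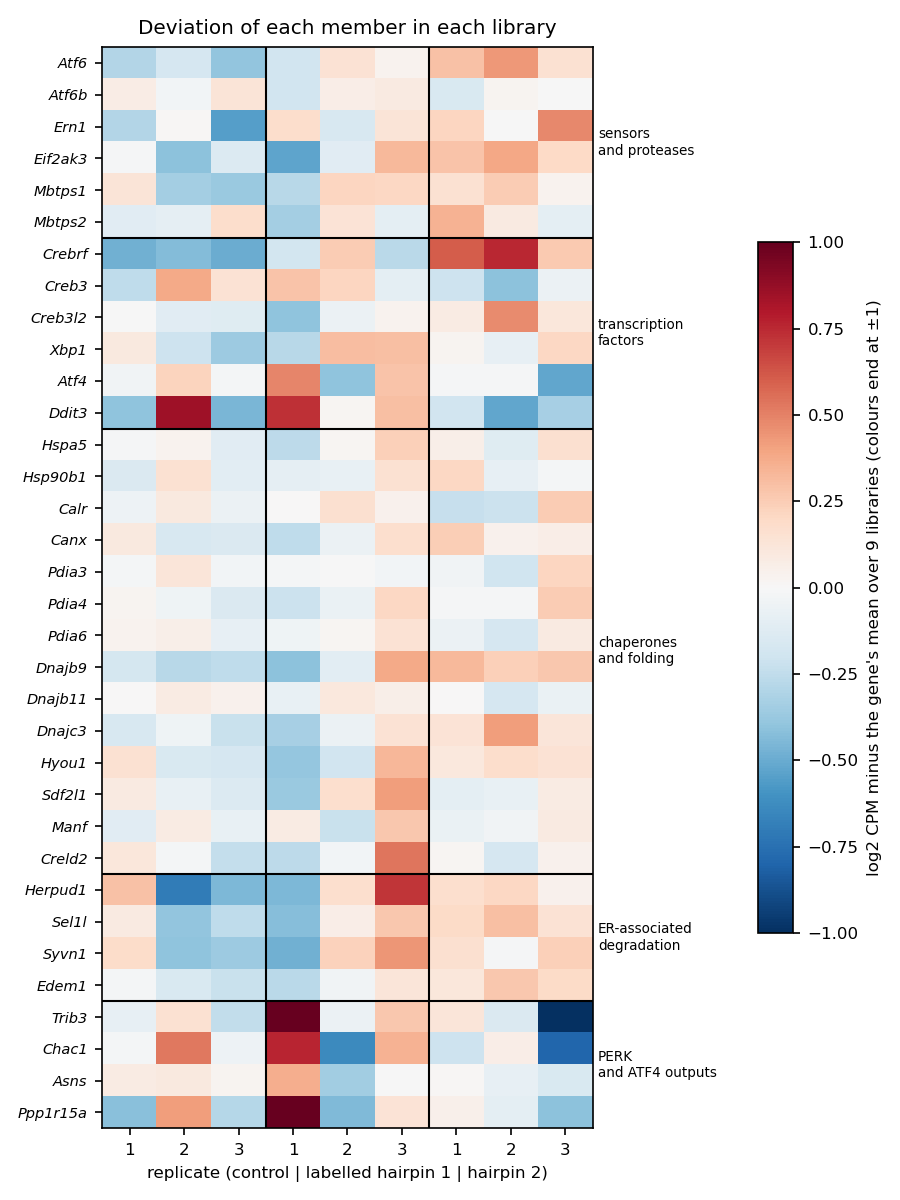
Deviation of each of the 34 members (rows, ordered by role) from its own mean over 9 libraries (columns, replicates 1 to 3 of each group), in log2 CPM, with colours ending at 1 and -1. Replicate 1 labelled hairpin 1 is red in the 4 ATF4 outputs and blue in most chaperone and ERAD rows, and the Crebrf row changes from blue in control to red with hairpin 2.

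Transcript length ran along with the hairpin 2 values of the members. Crebrf (7462 bases) and Atf6 (7246 bases) are at the 93.2 and 92.4 percentile of length among tested genes. Over all 14109 genes with a length, the log2 fold change of hairpin 2 against control had a Spearman rho of 0.37 with length, and over the 34 members it was 0.74; both are descriptions over genes that share the same libraries. In the libraries labelled hairpin 1 the rho was -0.02 over all genes and -0.04 over the members. For hairpin 2 against the libraries labelled hairpin 1 it was 0.42 over all genes and 0.85 over the members. All 15 members at or above the median tested length of 3205 bases had positive hairpin 2 values, with a median of 0.32 against 0.13 over all genes of that class. Of the 19 shorter members 7 were positive, with a median of -0.05 against -0.10. Between the hairpins, all 15 longer members and 3 of the 19 shorter ones were higher with hairpin 2. When each library's trend with length and GC content was removed, the hairpin 2 log2 fold changes were 0.63 for Crebrf, 0.26 for Atf6, 0.49 for Dnajb9, 0.48 for Herpud1 and 0.38 for Eif2ak3. All of these but Herpud1 were closer to 0 than as fitted, as were Ern1 (0.24), Dnajc3 (0.16), Sel1l (0.13), Mbtps1 (0.07), Edem1 (0.06) and Creb3l2 (0.03). Ddit3 (-0.40) and Chac1 (-0.24) were negative, and 25 of 34 members were positive. The role medians were then 0.16 for sensors and proteases, 0.06 for chaperones, 0.22 for ERAD and -0.06 for the outputs. The part of length in the member values was not tested beyond this removal.

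**Figure D4:**
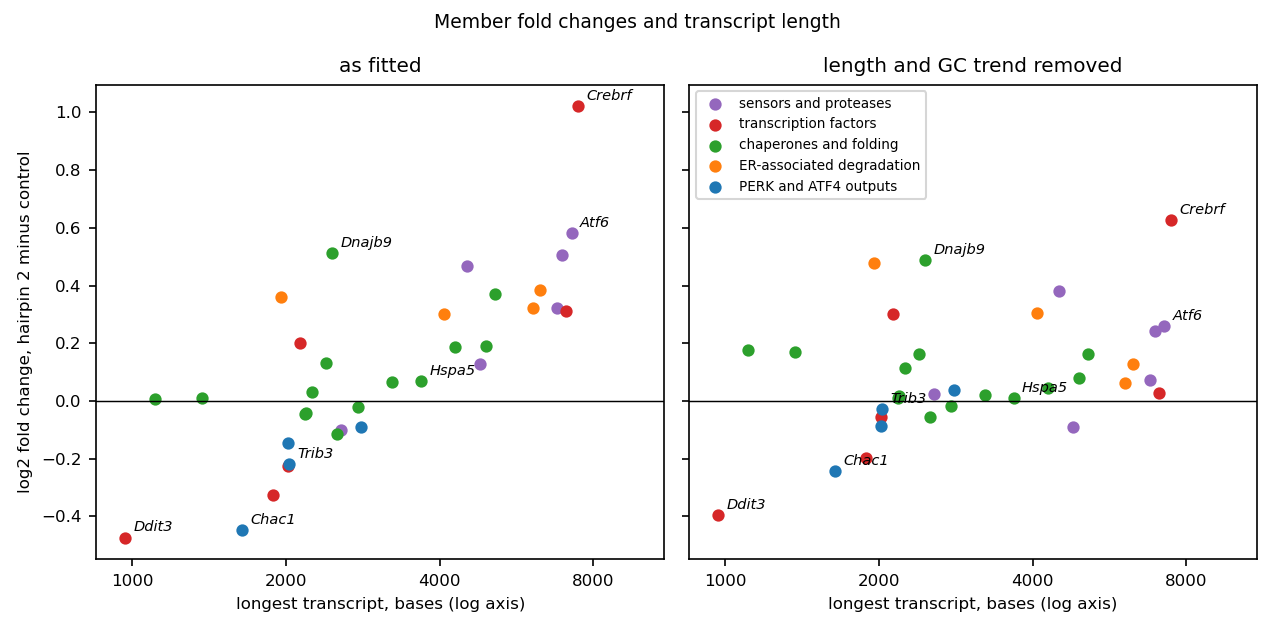
Log2 fold change of hairpin 2 against control for the 34 members (vertical axis, coloured by role) against the length of the longest transcript in bases (log axis), as fitted on the left and with each library's length and GC trend removed on the right. The Spearman rho with length is 0.74 on the left and 0.37 on the right, where Crebrf stands at 0.63 and Atf6 at 0.26.

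Other genes of the same pathways, listed apart from the members, had no gene past the adjusted threshold in any comparison. Of 22 other sensors and factors 19 were tested; Creb3l3, Creb3l4 and Ern2 did not pass the filter. Creb3l1, a CREB3 relative active in matrix-secreting cells, averaged 5.63 CPM in control, 13.1 in the libraries labelled hairpin 1 and 6.04 with hairpin 2. Its log2 fold change labelled hairpin 1 was 1.22 (SE 0.44; edgeR unadjusted p = 0.0205, adjusted p = 1), in the group that holds the library with most fibroblast markers; their part in it was not tested. It was the 1 gene of these lists under an unadjusted p of 0.05 in that comparison. The most abundant of this list, Yy1 and the eIF2 alpha phosphatase subunit Ppp1r15b, differed by 0.00 and -0.04. The list median was -0.03 in the libraries labelled hairpin 1 and -0.02 with hairpin 2.

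Of 26 tested folding genes outside the members, 22 had positive values in the libraries labelled hairpin 1 (median 0.11) and 9 with hairpin 2 (median -0.02). The most abundant were the disulfide isomerase gene P4hb, at 0.10 (SE 0.10) and -0.18 (SE 0.10), and the ER oxidase gene Ero1l, at 0.31 (SE 0.25) and -0.06 (SE 0.25). The 22 tested ERAD genes outside the members had medians of 0.01 and -0.09, with 15 and 5 positive. Vcp, the segregase that pulls proteins out of the membrane, differed by -0.07 and -0.10 (SE 0.10 each). The 22 ER translocation and transport genes had medians of 0.00 and -0.07; Sec61a1, the channel subunit, differed by -0.05 and -0.10 and Ssr3 by -0.03 and 0.13. The 26 other ATF4 targets had medians of 0.09 and -0.08, with 18 and 10 positive. Gars, a transfer RNA synthetase gene, differed by -0.07 and -0.11 and the amino acid transporter gene Slc7a5 by 0.21 and 0.16. The ERAD members had a hairpin 2 median of 0.34, or 0.22 with the length and GC trend removed, where the other ERAD genes had -0.09 as fitted. Their median transcript lengths were 5078.5 and 3399.5 bases. Whether the 2 sets differ was not tested, since the members were chosen on that comparison.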

How the data were processed

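Bulk RNA-seq counts came from 9 tumours; RNA was extracted with TRIzol and sequenced on a NovaSeq, per the labels' protocols. The authors deposited raw counts of reads, 1 whole number per gene symbol and library. Tools in the submitters' processing notes are Cufflinks and STAR 2.7.0d, and the builds there are the human hg38 and GRCh38, while gene symbols follow mouse style; for counter, annotation and strand, nothing is stated in the sources used here. The files hold 54532 entries. Ddit3 stands on 2 entries, and the entry at 0 in every library was not used.

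The test was edgeR 4.0.16 under R 4.3.3 (filterByExpr with a minimum count of 10 and a minimum total of 15, TMM, a robust quasi-likelihood model over the 3 groups together, Benjamini-Hochberg over all 14193 tested genes, threshold 0.05); the steps were tested on simulated counts. The SE is that of the edgeR log2 fold change. Gene positions, transcript lengths and GC content came from GENCODE M21 (99.4% of tested genes had a length). Besides Creb3 and Ddit3, exons of Eif2ak3, Dnajb9, Syvn1, Pdia3, Pdia6, Ppp1r15a, Hsp90b1 and Manf overlap another gene on the opposite strand. Exons of Mbtps2, Manf, Hsp90b1, Pdia4 and Ddit3 overlap another gene on the same strand, for Ddit3 a gene of the same symbol. Trends with length and GC were removed per library with splines of 5 degrees of freedom. Library totals of 15322163 to 17342554 set the counting precision. Within groups, libraries differed pairwise far beyond sampling noise (chi-square divided by degrees of freedom 20.1 to 71.6), so none was counted as a second deposit of another.

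The members and lists were chosen with earlier results of these data known. Genes were named as follows: all 34 members; of other pathway genes, those under an unadjusted p of 0.05 labelled hairpin 1 and the 2 most abundant of each list. A result on 1 of these genes is not reported here. Same-numbered libraries did not deviate together, so the main fit has no replicate block. Alternatives were DESeq2 1.42.0, limma-voom (limma 3.58.1), other scaling, no filter, a replicate block, removal of length and GC trends, and leaving out libraries.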

Additional observations from a re-analysis of the deposited data

How the results depend on the processing

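Under 17 alternatives, 1734 values of the members (34 genes in 3 comparisons, 102 values each) were recomputed. Of these, 23 moved by more than the SD between replicates. With the length and GC trend removed 18 of 102 moved, among them Crebrf (0.63) and Atf6 (0.26) with hairpin 2 against control. Without both libraries that stood apart 4 moved, and without control replicate 2 only Ddit3 with hairpin 2. Some alternatives changed neither compared group, so 1734 is not a count of independent checks. A gene with a wide spread could change sign without being counted as moved. Ppp1r15a labelled hairpin 1 went from 0.44 to -0.09 without replicate 1 of that group. For hairpin 2 against control, the 0 genes called by edgeR (2046 at an unadjusted p under 0.05) became 4 with no filter, 303 with DESeq2 and 0 to 2 when 1 library was left out (2 without hairpin 2 replicate 1). Of the members, 1 (Crebrf) was then called with no filter and 2 (Crebrf and Atf6) with DESeq2, which called 1.11% of all genes higher and 1.03% lower. Both genes were chosen on this comparison, so nothing is read from these calls. For hairpin 2 against hairpin 1, the 0 genes (1655 unadjusted) became 2 with no filter, 89 with DESeq2 and 0 to 1 when 1 library was left out (1 without the same library). For the libraries labelled hairpin 1 against control, edgeR called 0 genes (450 unadjusted) and DESeq2 also 0. The cause of these differences between tools was not tested. Leaving out 1 library gave 0.90 to 1.15 for Crebrf and 0.50 to 0.65 for Atf6 with hairpin 2. The member median ranged from -0.02, without replicate 3 labelled hairpin 1, to 0.12 for the libraries labelled hairpin 1, from 0.06 to 0.13 for hairpin 2, and from -0.04 to 0.14 for hairpin 2 against hairpin 1.

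Same-numbered libraries correlated at -0.409 to 0.138 in their deviations, and 2 of 18 comparisons were best with their own number. No shared deviation by number was seen, which does not show that same-numbered samples were handled apart. With a replicate block, Crebrf was at 1.01 and Atf6 at 0.58 with hairpin 2, the member medians were 0.08, 0.09 and 0.02, and 0 genes were called in each comparison. With 3 libraries a group, an adjusted p above the threshold does not show that levels were equal.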
